A study of Mus musculus with 8 samples.

Results

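Forkhead genes encode transcription factors that bind DNA through a winged-helix domain, and several of them act early in the choice of a cell lineage. The 9 described here (Foxa1, Foxa2, Foxp2, Foxl2, Foxf1, Foxc1, Foxj1, Foxb1 and Foxd3) came from a list of developmental forkhead genes, out of 24350 mouse genes with curated transcripts, and each was followed through the deposited intervals that overlapped its mm10 gene span plus 1 kb on each side. In all, 68 intervals reached the 9 gene windows, and 8 of the 9 genes had an interval of at least 1 library. The cells were mouse neuronal stem cells, labelled p16Ink4a and p14Arf negative in both arms, into which either wild-type H3.3 or H3.3K27M had been stably transduced. In H3.3K27M the lysine at position 27 of the histone variant is a methionine. Chromatin immunoprecipitation sequencing was done for H3K27me3, H3K27ac and H3K4me3, with 1 library for each genotype and mark. Nothing in the labels separates a cell line or a clone from its genotype, so line and genotype cannot be told apart.

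Polycomb repressive complex 2 writes H3K27me3 and is known to keep lineage-specifying genes silent in stem cells, mostly at promoters rich in CpG dinucleotides. H3K4me3 marks promoters, with or without transcription, and H3K27ac marks active promoters and enhancers. A promoter with H3K4me3 and H3K27me3 together is called bivalent. H3.3K27M is known to lower H3K27me3 over much of the genome while some CpG-rich sites keep it.

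The values are mean tag densities, the authors' number of tags per bin of about 32 nt averaged over a called interval, and for a gene they are weighted by the length of each interval inside the gene window. No replicates exist, so values carry no error and no test was made. Depth behind the lists is unknown. The K27M library had 5877 H3K27me3 intervals over 44.4 Mb against 20705 over 243.7 Mb in the wild-type library. Densities of a gene in the 2 genotypes were compared as log2 ratios, K27M over wild type, with 1 added to each density. Their medians over all genes marked in both libraries were -1.11 for H3K27me3, 0.13 for H3K27ac and 0.36 for H3K4me3. Whether such a shift comes from the scale of the libraries or from the mark itself cannot be told apart. Ratios below are at the deposited scale, and where they are read against these shifts they are called relative. All 12 neural stem cell markers examined, Sox2, Nes and Pax6 among them, carried H3K4me3 and H3K27ac in both genotypes. H3K4me3 reached 5 of 6 neuronal and 4 of 6 ependymal markers, Foxj1 among the latter, and 1 of 6 microglial, 2 of 6 fibroblast and 2 of 6 endothelial markers, the same numbers in each genotype. Over all genes H3K4me3 reached 55.7% in wild type and 56.2% in K27M. H3K27ac reached 3 neuronal, 4 ependymal, 3 endothelial, 2 microglial and 1 fibroblast marker in wild type, beside 51.5% of all genes. In K27M it reached 2, 2, 1, 0 and 0 of these markers, beside 43.7%. Their part in the results was not tested.

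The promoters shown next stand for 4 chromatin states met among these genes: Foxa1 with H3K27me3 in the K27M library alone, Foxl2 with H3K27me3 in both and less of it in K27M, Foxc1 with active marks and no H3K27me3, and Foxd3 with no interval at all. Each runs 5′ to 3′ from 250 bases before to 50 bases after the annotated start, from RefSeq on GRCm38.p6, with CpG dinucleotides in capitals. The windows are chr12:57546062-57546361 on the minus strand for Foxa1, and on the plus strand chr9:98955357-98955656 for Foxl2, chr13:31806396-31806695 for Foxc1 and chr4:99656049-99656348 for Foxd3.
Foxa1: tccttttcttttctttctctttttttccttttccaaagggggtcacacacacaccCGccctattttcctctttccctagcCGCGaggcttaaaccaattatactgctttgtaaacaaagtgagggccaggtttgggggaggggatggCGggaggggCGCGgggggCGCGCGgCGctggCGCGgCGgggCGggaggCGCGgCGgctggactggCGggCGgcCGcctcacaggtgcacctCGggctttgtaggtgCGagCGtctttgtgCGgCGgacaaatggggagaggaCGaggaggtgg
Foxl2: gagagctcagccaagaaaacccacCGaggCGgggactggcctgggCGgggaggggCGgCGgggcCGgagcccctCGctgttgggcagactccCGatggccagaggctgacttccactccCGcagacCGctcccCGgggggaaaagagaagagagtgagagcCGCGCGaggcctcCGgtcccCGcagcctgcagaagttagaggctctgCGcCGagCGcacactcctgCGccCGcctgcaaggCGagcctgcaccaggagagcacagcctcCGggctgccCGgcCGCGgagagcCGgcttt
Foxc1: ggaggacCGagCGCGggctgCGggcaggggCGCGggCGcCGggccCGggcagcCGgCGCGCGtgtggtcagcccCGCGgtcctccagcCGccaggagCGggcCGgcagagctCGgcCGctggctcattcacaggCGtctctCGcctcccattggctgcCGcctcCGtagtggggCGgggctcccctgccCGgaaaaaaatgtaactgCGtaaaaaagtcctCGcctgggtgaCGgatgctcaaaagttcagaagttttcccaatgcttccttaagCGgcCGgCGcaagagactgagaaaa
Foxd3: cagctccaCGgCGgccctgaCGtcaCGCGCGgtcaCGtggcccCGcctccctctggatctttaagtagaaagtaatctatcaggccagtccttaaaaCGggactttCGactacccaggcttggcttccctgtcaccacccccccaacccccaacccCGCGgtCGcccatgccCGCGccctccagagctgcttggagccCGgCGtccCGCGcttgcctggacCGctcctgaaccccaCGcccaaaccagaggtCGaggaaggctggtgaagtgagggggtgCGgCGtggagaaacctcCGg

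All 4 promoters were rich in CpG whatever marks they carried. They held 26 (Foxa1), 27 (Foxl2), 32 (Foxc1) and 25 (Foxd3) CpG dinucleotides, against a median of 7 over 32851 promoters of this length. Between 9.52% and 18.4% of those promoters held at least as many. Foxa2, listed with 3 starts, had 12, 13 and 23. The letters TGTTTAC, the core of many forkhead binding sites, were searched on both strands. They occurred in 3.65% of all promoters and, among the 7 windows of the 5 genes with an entry, in the Foxa1 promoter only, where the reverse complement begins 141 bases before the start. Foxp2, Foxf1, Foxj1 and Foxb1 had no entry.

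H3K27me3 reached 4 of the 9 genes in the wild-type library, beside 31.4% of all genes, and 5 of the 9 in the K27M library, beside 10.1% of all genes. All 4 genes marked in wild type (Foxa2, Foxp2, Foxl2 and Foxf1) still had an interval in K27M, so that 4 of 9 were marked in both (9.63% of all genes), whereas 30.7% of all wild-type marked genes kept one. Foxa1 was marked in K27M alone, as were 0.464% of all genes. The genes went different ways in density: Foxa2 was at least 2-fold denser in K27M (0.213% of genes marked in both), and Foxl2 and Foxf1 were at least 2-fold less dense (59.3%). Foxp2 changed little in density but had 12.1 times the covered length. Over the 4 genes the log2 ratios had a median of -0.59, beside -1.11 over all genes marked in both. Inside the gene window, covered length was at least 2-fold longer in K27M at 2 of the 5 genes marked in either library. These were Foxa1 and Foxp2, against 2.54% of all such genes. Covered length was at least 2-fold shorter at 0 of 5, against 84.7%. Bases outside the window do not count, and wild-type H3K27me3 filled the windows of Foxa2, Foxl2 and Foxf1. Within 50 kb of the span, covered length went from 48.0 to 19.0 kb at Foxl2 and from 78.6 to 16.0 kb at Foxf1. It was longer in K27M at Foxa1, Foxa2 and Foxp2.

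**Figure D1:**
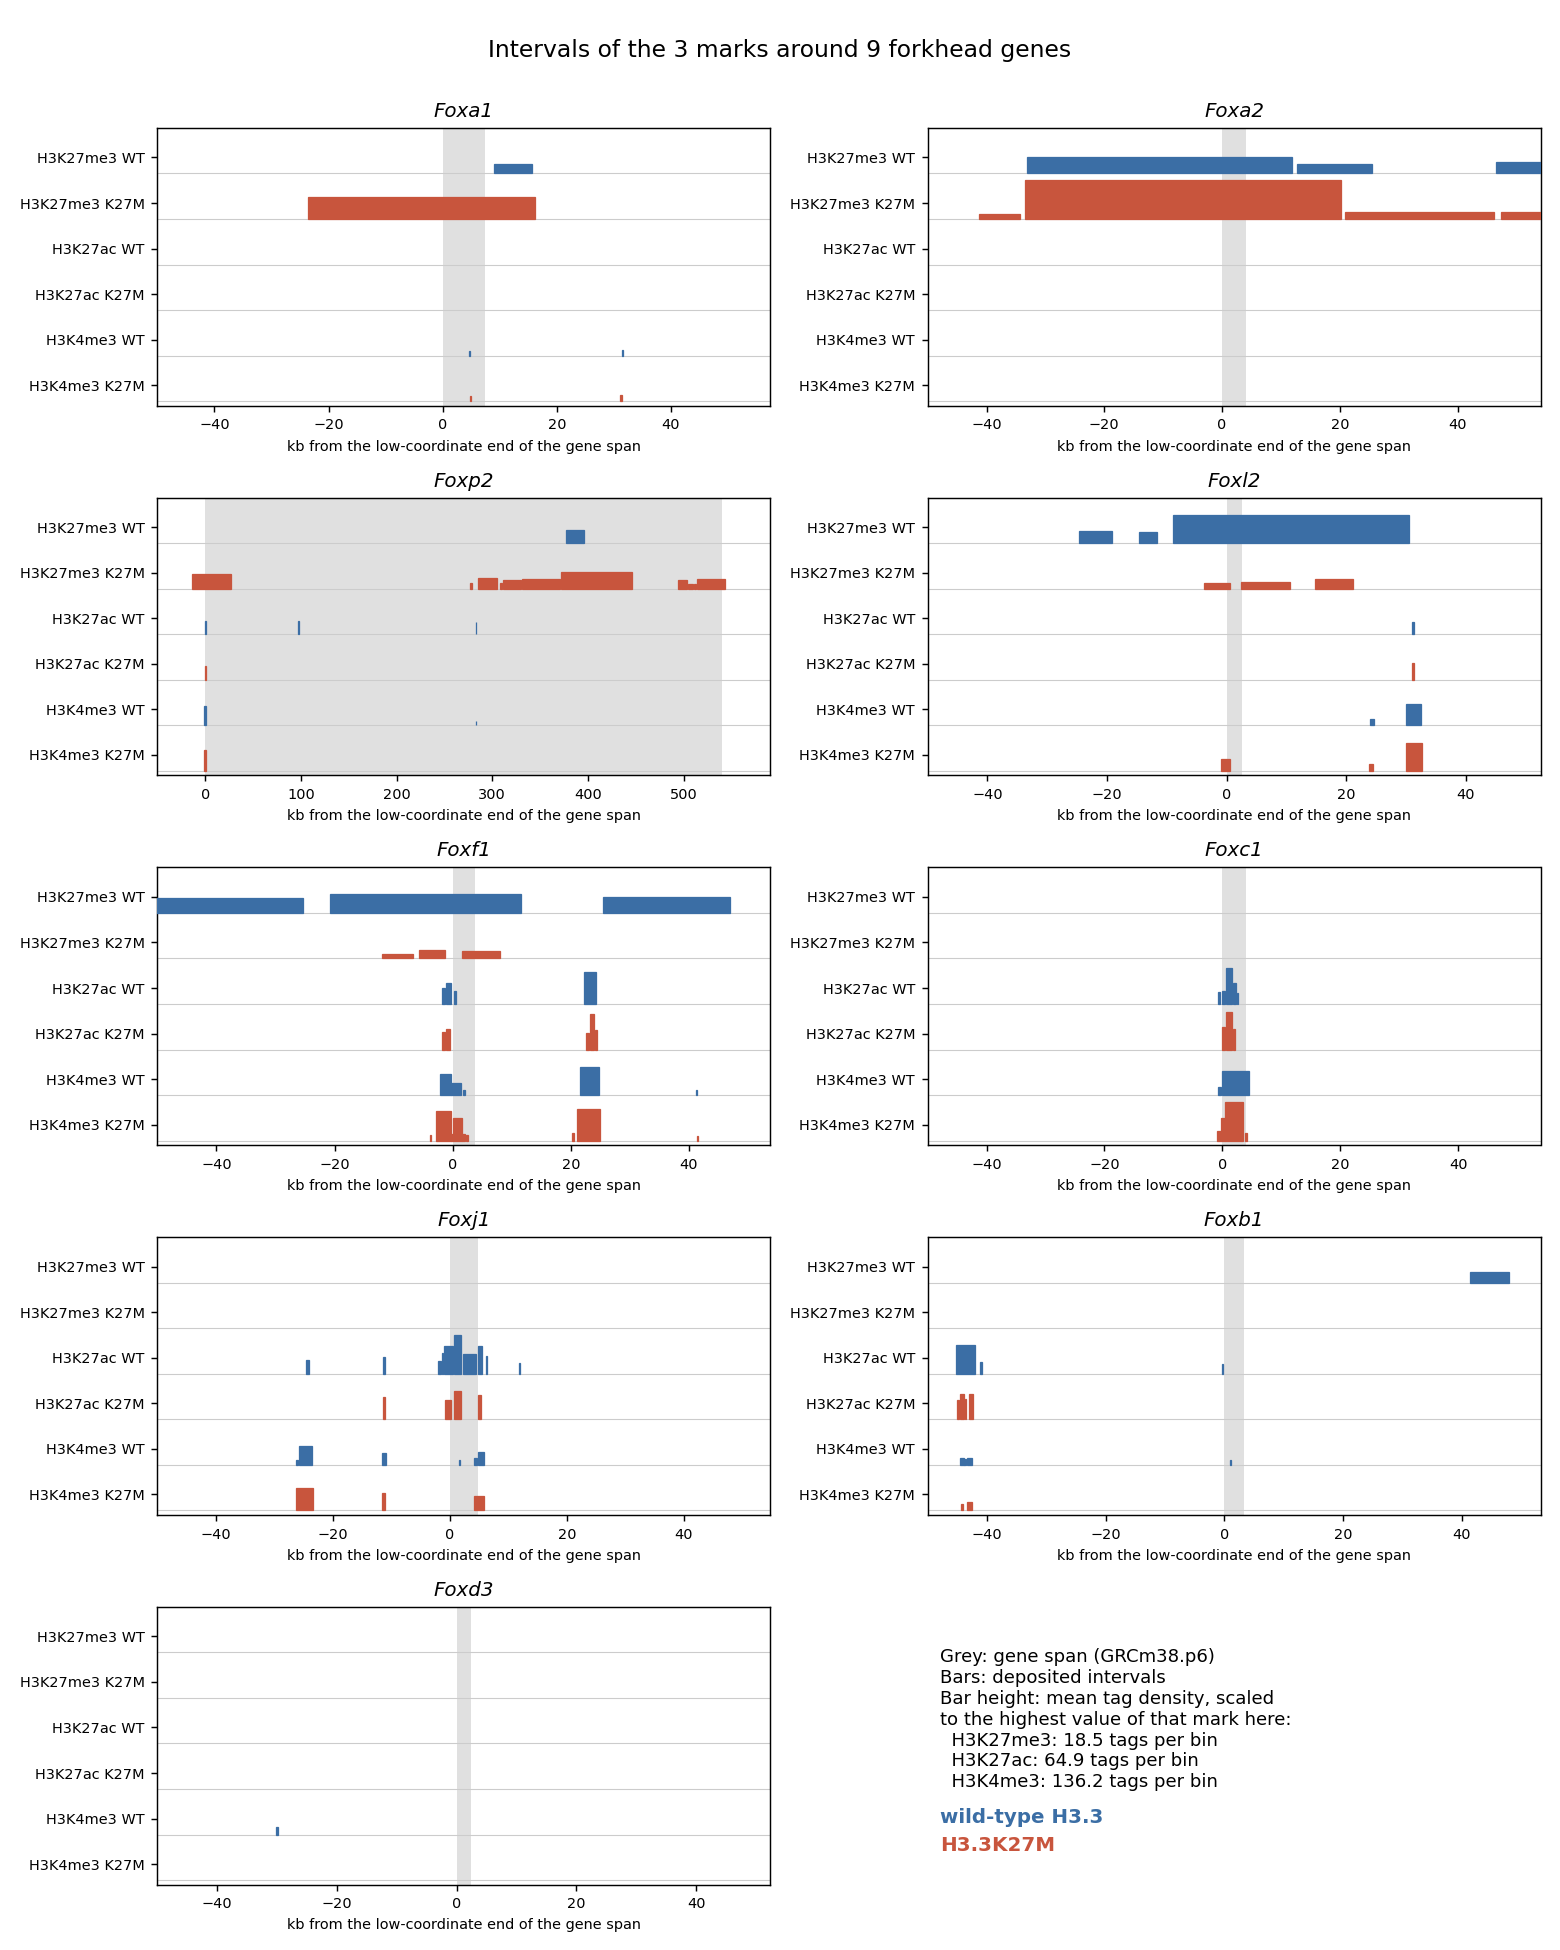
Deposited intervals within 50 kb of the 9 gene spans, by distance in kb from the low-coordinate end of the span (grey), with wild-type H3.3 in blue and H3.3K27M in red. Bar height is the mean tag density of the interval scaled to the highest value of that mark among these loci. H3K27me3 is wider in K27M at Foxa1, Foxa2 and Foxp2 and narrower at Foxl2 and Foxf1, and it is missing within 50 kb of Foxc1, Foxj1 and Foxd3.

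Foxa1 and Foxa2, pioneer factors that open chromatin in endoderm and also act in the floor plate and in midbrain dopamine neurons, had the densest H3K27me3 of the 9 genes in the K27M library. At Foxa1 a single K27M interval of 39.8 kb (chr12:57517000-57556799) with a mean density of 10.3 and a highest value of 44 covered 100% of the gene window. It ranked 139th by mean density among the 5877 K27M intervals. In the wild-type library no interval reached that window, and the nearest one, 6.60 kb long with a density of 4.69, began 1.57 kb beyond the span. Among the 113 genes marked in K27M alone, Foxa1 had the 13th highest density. The K27M interval also reached Ttc6, which overlaps Foxa1 in the annotation, so the mark cannot be assigned to either gene alone.

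The Foxa1 call as marked in K27M alone depends on how far the window reaches. With a flank of 5 kb, or with overlapping intervals of both libraries merged, the wild-type interval counted too and the log2 ratio was 0.99. That ratio sets a K27M interval of 39.8 kb over the gene against a wild-type one of 6.60 kb beyond the span. It does not compare like regions. H3K4me3 at Foxa1 was limited to 1 short interval in each library, of 233 bp at a density of 16.4 in wild type and 226 bp at 19.6 in K27M. Both lay near the bottom of their lists, at percentiles 3.87 and 7.12 of interval density. The K27M one lay inside the H3K27me3 interval and the wild-type one outside any. No H3K27ac interval lay within 50 kb of Foxa1 in either library.

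Foxa2 had H3K27me3 in both libraries and more of it in K27M. The wild-type interval (chr2:148009800-148054799) was 45.0 kb long with a mean density of 7.80 and a highest value of 38, at percentile 88.2 of its list. The K27M interval (chr2:148009400-148062999) was 53.6 kb long with a mean density of 18.5 and a highest value of 57, and ranked 14th of 5877. The 2 intervals covered nearly the same stretch, since the K27M interval held 100% of the wild-type one, so this ratio compares like regions. The log2 ratio was 1.15, or 2.26 relative to all genes, the 5th highest of 2345 genes marked in both. It fell short of 2-fold by highest density (0.57), with a pseudocount of 5 (0.88) and with merged regions (0.86), and it stayed above 0 under every alternative run. Within 50 kb of the gene H3K27me3 covered 65.4 kb in wild type and 92.6 kb in K27M. No H3K4me3 or H3K27ac interval was called within that distance in either genotype, and the nearest H3K4me3 lay 165.1 kb away in wild type and 165.5 kb away in K27M.

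Foxp2, a repressor of striatal, cortical and cerebellar neurons whose human counterpart is linked to speech, had more of its window covered by H3K27me3 in the K27M library. Its window of 542.6 kb is the longest of the 9. In wild type 1 interval of 19.0 kb (chr6:15278000-15296999) with a density of 6.09 and no promoter or CpG island covered 3.50% of the window. In K27M 11 intervals covered 229.8 kb, or 42.4%, with densities from 2.39 to 7.74. None of the 11 lay between 27.25 and 276.9 kb into the span. The densest of them, 74.0 kb long, held the whole wild-type interval, and there the log2 ratio was 0.30. Over the whole window the log2 ratio of mean density was -0.07, and by highest density, 17 against 39, it was 1.15. The direction of the density change at Foxp2 therefore depended on the measure, while the covered length was larger in K27M.

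The K27M interval at the low-coordinate end of Foxp2 (chr6:14887600-14928599) was 41.0 kb long with a density of 6.91, and the authors' table counts 1 promoter and 1 CpG island in it. No wild-type H3K27me3 interval lay there. The H3K4me3 interval in the same place was kept, with 1.84 kb at a density of 69.5 in wild type and 2.11 kb at 73.1 in K27M. H3K27ac there was also called in both libraries, at 21.7 and 23.5. All of the H3K4me3 and H3K27ac of the Foxp2 window lay inside H3K27me3 in the K27M library and none of it in the wild-type library. A pair of further H3K27ac intervals, 97.2 and 282.6 kb into the span with densities of 21.8 and 20.1, and a short H3K4me3 interval (15.2) beside the latter were called in wild type alone. These densities lay in the lower part of the wild-type lists, and the 5th percentile of the K27M H3K27ac list was 25.5 against 17.0 in wild type.

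**Figure D2:**
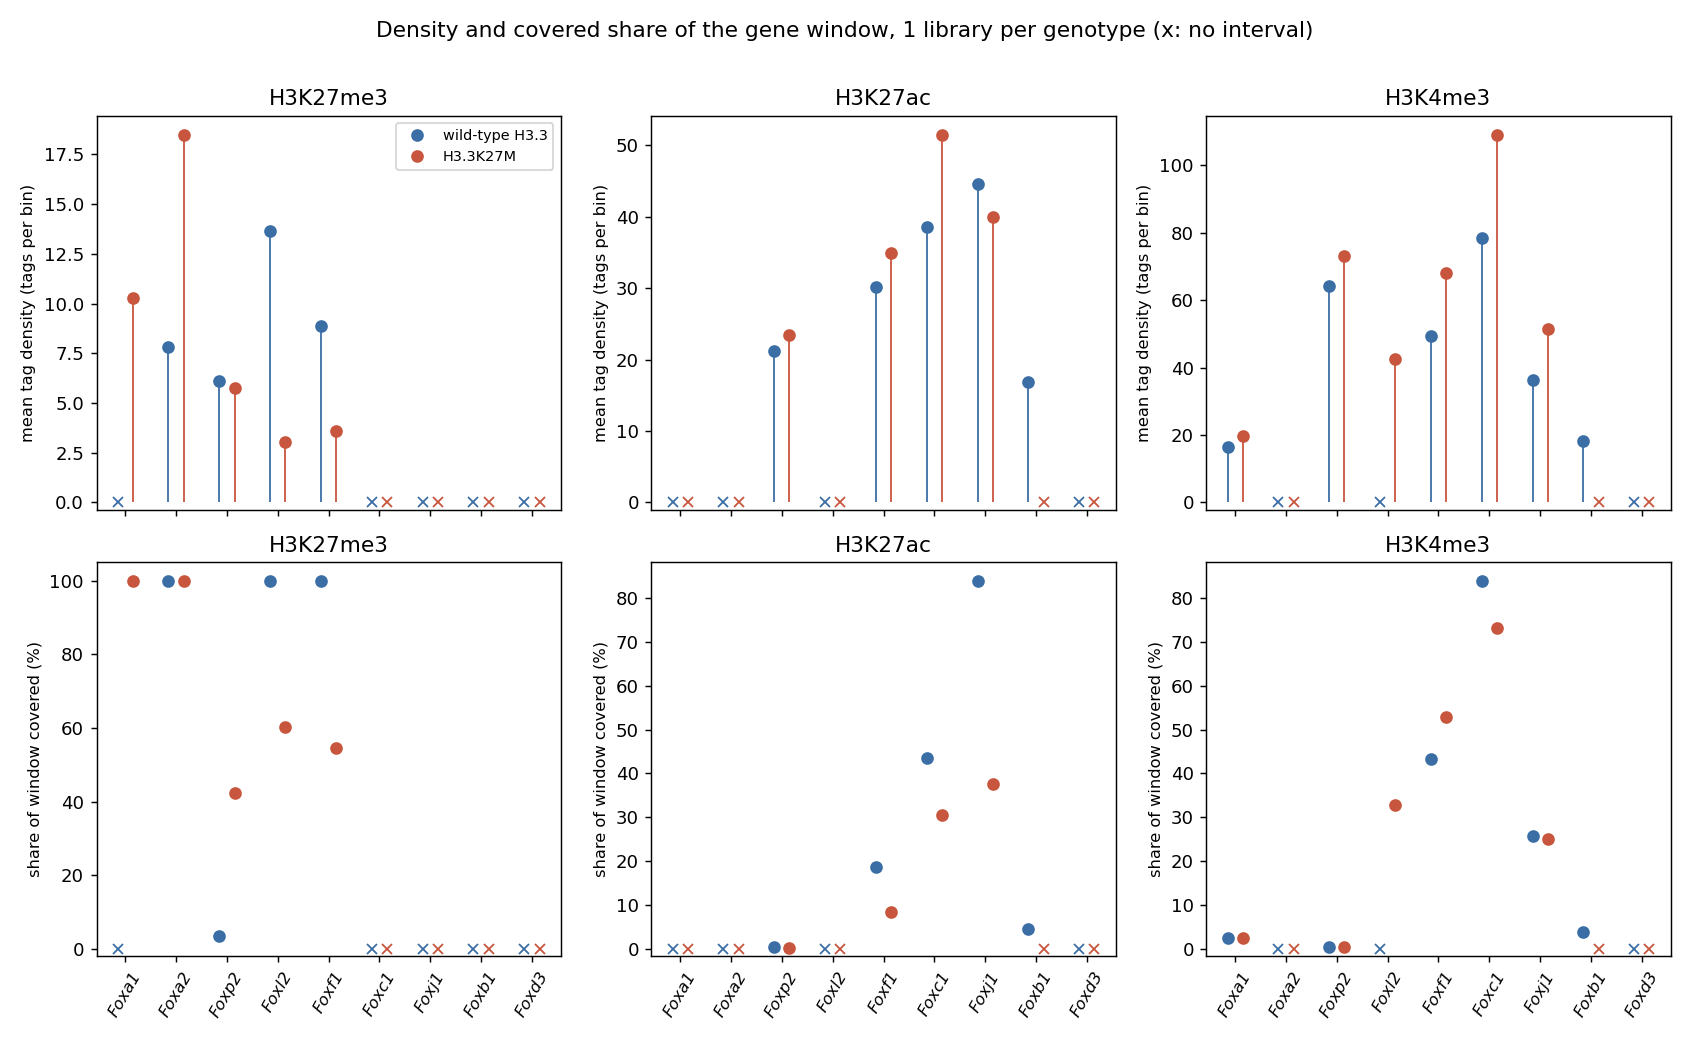
Mean tag density (top, tags per bin of about 32 nt) and share of the gene window covered by intervals in percent (bottom) for the 3 marks at the 9 genes, with 1 library per genotype. Blue points are wild-type H3.3, red points H3.3K27M, and crosses mark libraries with no interval. For H3K27me3 Foxa2 stands at 7.80 and 18.5 and Foxl2 at 13.7 and 3.06, in opposite order.

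Foxl2, a factor of ovarian granulosa cells and eyelids, had the densest wild-type H3K27me3 of the 9 genes and the lowest ratio. The wild-type interval (chr9:98946600-98986199) was 39.6 kb long with a mean density of 13.7 and a highest value of 52, and ranked 332nd of 20705. In K27M 2 intervals of 4.40 and 8.20 kb reached the window with densities of 2.85 and 3.35, and together they covered 60.2% of it. The log2 ratio was -1.85, or -0.74 relative to all genes, and 5.03% of genes marked in both had a ratio as low. The ratio turned to 0.66 when the libraries were scaled to equal sums over all intervals, and stayed below 0 under the other alternatives that gave a ratio. With 1 density floor of 3.54 for both lists no K27M interval was left at Foxl2. The K27M densities lay near the median of that list (2.81), and the called lengths differed widely, so the ratio does not compare like regions.

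An H3K4me3 interval appeared at the Foxl2 promoter in the K27M library alone, as at 1.53% of all genes. It was 1.48 kb long (chr9:98954700-98956181) with a mean density of 42.7 and a highest value of 81, and it covered the whole promoter window printed above. All of it lay inside an H3K27me3 interval. The nearest wild-type H3K4me3 interval was 21.4 kb from the span. No H3K27ac interval lay closer than 28.5 kb in wild type or 28.6 kb in K27M. The noncoding Foxl2os, 0.297 kb from the span, shared the H3K27me3 interval of wild type and 1 interval of each of H3K27me3 and H3K4me3 in K27M.

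Foxf1, a mesodermal factor of lung and gut mesenchyme and vessels, also had thinner H3K27me3 in K27M. Density was 8.90 in wild type over an interval of 32.4 kb (chr8:121063600-121095999) and 3.57 in K27M over 6.40 kb (chr8:121086000-121092399). The covered share of the window went from 100% to 54.7%, and within 50 kb of the gene the covered length went from 78.6 to 16.0 kb. The log2 ratio of -1.12 lay at the median of all genes marked in both, with 49.9% of them at or below it, and it turned to 1.44 with equal sums. H3K4me3 density was 49.4 in wild type and 68.0 in K27M, and its covered length 2.50 and 3.05 kb. The strongest H3K4me3 interval, at the low-coordinate edge of the window and shared with the noncoding Fendrr, had densities of 75.6 and 103.6. Inside the window, 100% of the wild-type H3K4me3 length lay within H3K27me3, and 22.2% of the K27M length did. H3K27ac was 30.1 over 1.07 kb in wild type and 34.9 over 0.479 kb in K27M.

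Foxc1 and Foxj1 carried both active marks in each genotype and no H3K27me3. Foxc1, which acts in mesoderm, eye, meninges and mural cells, had the strongest H3K4me3 of the 9 genes. The density was 78.4 in wild type and 109.1 in K27M, over 5.03 and 4.38 kb, and the log2 ratio of 0.47 was 0.12 relative to all genes. H3K27ac at Foxc1 was 38.6 over 2.60 kb in wild type and 51.5 over 1.82 kb in K27M. Its log2 ratio was 0.41 by mean density and -0.23 by highest density, 121 against 103, so the direction depended on the measure. With equal 5th percentiles it was -0.16. The nearest H3K27me3 lay 178.6 kb from Foxc1 in wild type and 181.4 kb in K27M, in intervals with densities of 8.71 and 2.19 that reach Foxf2, its forkhead neighbour.

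Foxj1, the master regulator of motile cilia and a marker of ependymal cells, kept its H3K4me3 and had less covered H3K27ac in K27M. H3K4me3 density was 36.3 in wild type and 51.5 in K27M, over 1.75 and 1.70 kb. The log2 ratio was 0.49 in the window with flanks and 1.14, past 2-fold, within the gene span alone. By densest interval, 46.4 against 51.5, it was 0.15. That wild-type interval of 1.05 kb ran 1.03 kb beyond the span and so weighed little without flanks. H3K27ac covered 5.71 kb, or 83.9% of the window, in wild type and 2.55 kb, or 37.6%, in K27M. Its mean density was 44.6 and 39.9, a log2 ratio of -0.16, and by highest density, 94 against 65, the ratio was -0.53. With equal sums the mean ratio turned to 0.94. A wild-type H3K27ac interval of 2.37 kb (33.8) within the gene span had no K27M counterpart. Rnf157, 0.846 kb away, shared 1 of the H3K27ac intervals in each genotype, and 2 of the H3K4me3 intervals in wild type and 1 in K27M.

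Foxb1, a factor of the developing diencephalon and mammillary body, had weak active marks in wild type alone. They were 1 H3K4me3 interval of 194 bp (18.2) and 1 H3K27ac interval of 232 bp (16.9), at percentiles 10.1 and 4.64 of their lists. Both densities were below the 5th percentiles of the K27M lists, 18.9 for H3K4me3 and 25.5 for H3K27ac, so few K27M intervals were called at such densities. The nearest H3K27me3 lay 38.1 kb away in wild type and 174.3 kb away in K27M. Foxd3, a factor of neural crest and of pluripotent cells, had no interval of any mark in any library, which held for 25.0% of all genes. The nearest interval of any list was a wild-type H3K4me3 interval 29.9 kb away (25.1). No H3K27me3 lay within 50 kb of Foxd3 in either library.

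Over the 9 genes, H3K27ac reached 5 in wild type and 4 in K27M, beside 51.5% and 43.7% of all genes. It reached 4 in both (43.0% of all genes), 1 in wild type alone (8.55%) and 0 in K27M alone (0.669%), and 83.4% of all genes marked in wild type kept it. All 4 genes with H3K27ac in both (Foxc1, Foxf1, Foxj1 and Foxp2) had a shorter covered length in K27M, from 0.188 to 0.701 of the wild-type length. With Foxb1, which had none in K27M, the length was at least 2-fold shorter at 4 of 5, a share to be set beside 49.9% of all genes marked in either. The log2 density ratios had a median of 0.17, against 0.13 over all genes. With equal 5th percentiles all 4 were below 0, with a median of -0.39. H3K4me3 reached 6 of the 9 genes in wild type and 6 in K27M, beside 55.7% and 56.2%. Only Foxb1 had it in wild type alone (1.08% of all genes). That was 1 interval of 194 bp with a density below the 5th percentile of the K27M list. Of all genes marked in wild type, 98.1% kept H3K4me3. Its covered length was at least 2-fold longer at 1 of 7, Foxl2 (4.00%), and at least 2-fold shorter at 1 of 7, Foxb1 (2.72%). The 5 genes in common had log2 ratios from 0.18 at Foxp2 to 0.49 at Foxj1, with a median of 0.45, and 96.2% of all genes marked in both also had ratios above 0. With equal sums Foxp2 and Foxa1 turned to -0.22 and -0.15. In the windows with flanks no H3K4me3 ratio reached 2-fold upward (0.646% of all genes) or downward (0.0601%), and no H3K27ac ratio did (0.315% and 0.00955%).

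By combination, H3K4me3 and H3K27me3 reached the same window at 2 of the 9 genes in wild type (Foxf1 and Foxp2), beside 14.9% of all genes. They did so at 4 in K27M (Foxa1, Foxf1, Foxl2 and Foxp2), beside 5.80%. In wild type 100% of the H3K4me3 length lay inside H3K27me3 at Foxf1 and 0% at Foxp2, where the marks lay apart in a window of 542.6 kb. In K27M all of the H3K4me3 length lay inside H3K27me3 at Foxa1, Foxl2 and Foxp2, and 22.2% of it at Foxf1. Both active marks without H3K27me3 were found at Foxb1, Foxc1 and Foxj1 in wild type (38.3% of all genes) and at Foxc1 and Foxj1 in K27M (40.1%).

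**Figure D3:**
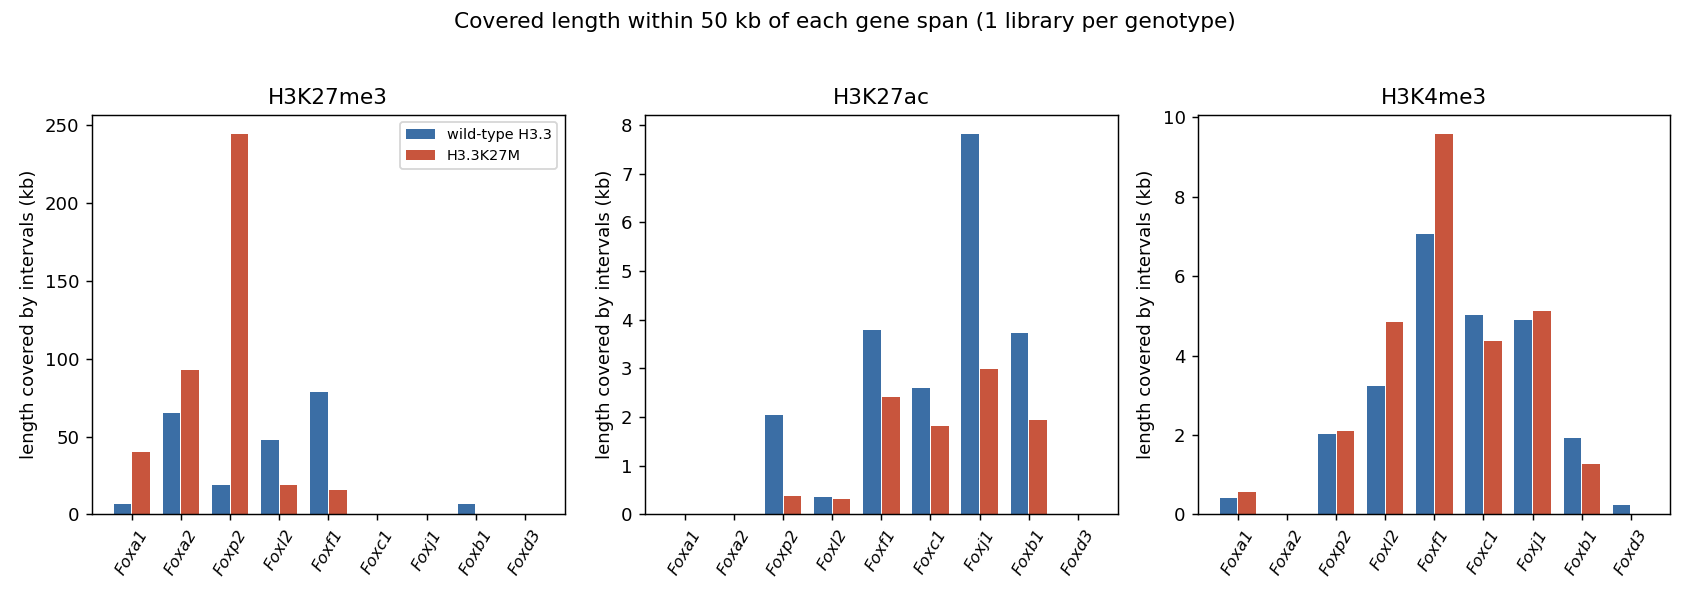
Length covered by intervals of each mark within 50 kb of each gene span, in kb, with 1 library per genotype (wild-type H3.3 blue, H3.3K27M red). H3K27me3 goes from 6.60 to 39.8 kb at Foxa1 and from 19.0 to 244.2 kb at Foxp2, and from 78.6 to 16.0 kb at Foxf1. H3K27ac is shorter in K27M at each gene that has it, and the whole H3K27ac lists cover 31.8 Mb in wild type and 12.7 Mb in K27M.

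The other forkhead genes give the setting for these values. Of the 35 others in the list of 44, H3K27me3 reached 15 in wild type and 9 in K27M, beside 31.4% and 10.1% of all genes. All 9 were also marked in wild type, with a median log2 ratio of -1.29, beside -1.11 over all genes marked in both. No ratio among those 9 was above 0 at the deposited scale, and only 5.03% of all genes marked in both had one above 0. The highest ratios of the whole family were those of Foxa2, Foxp2 and Foxi3 (-0.52), and the lowest those of Foxl2, Foxh1 (-1.63) and Foxf2 (-1.61). Foxa3, the third member of the Foxa group, went from 17.7 to 10.9, a log2 ratio of -0.65. Foxc2 and Foxl1, which lie beside Foxf1, shared 1 H3K27me3 interval in wild type, with a density of 7.69, and had none in K27M.

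**Figure D4:**
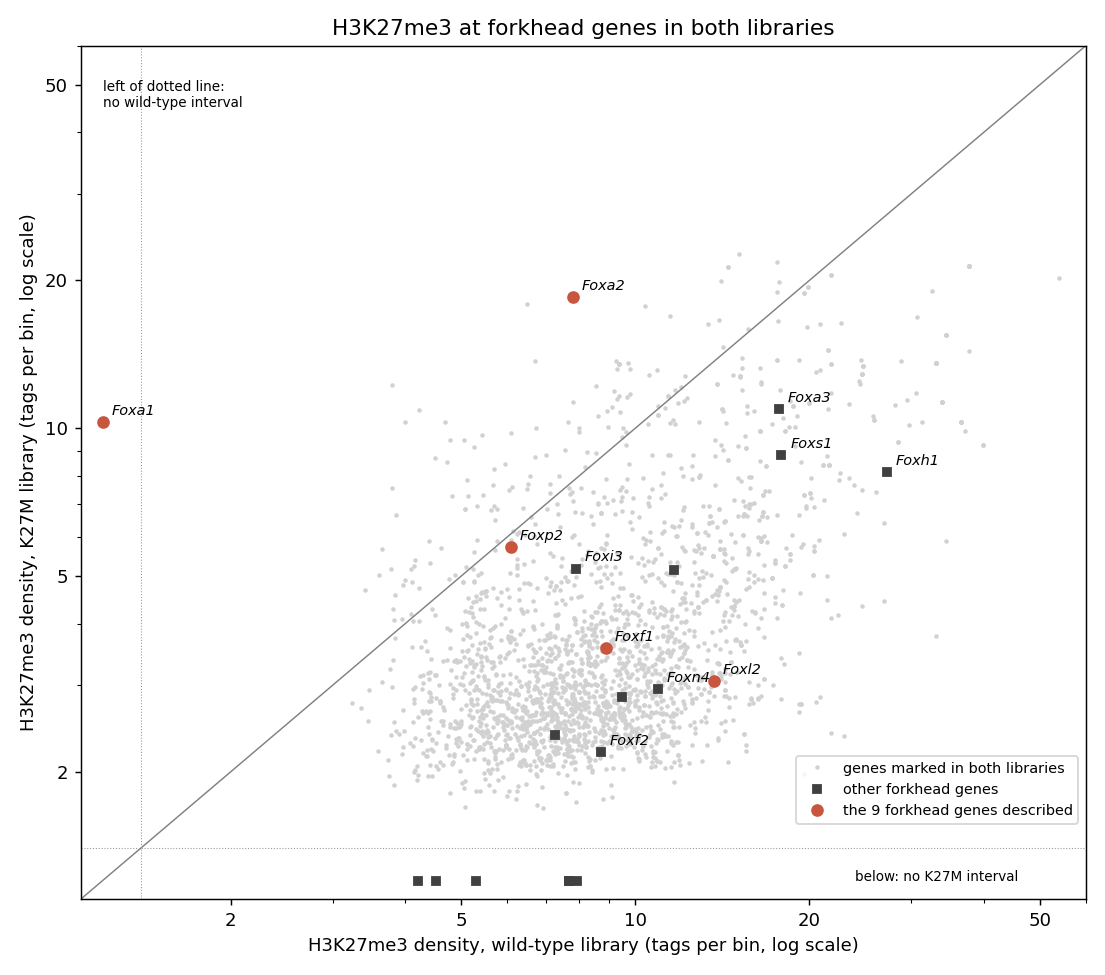
H3K27me3 density in the wild-type library (x axis) and in the K27M library (y axis), both in tags per bin on log axes, for forkhead genes with an interval in at least 1 library. Red circles are the genes described here, dark squares other forkhead genes and grey dots all 2345 genes marked in both, and genes without an interval in a library are drawn beyond the dotted lines at a place that carries no value. Foxa2 lies above the diagonal of equal density at 7.80 and 18.5, and Foxl2 far below it at 13.7 and 3.06.

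Among genes known to act with the Foxa factors and with Foxj1, only Gata6 had an H3K27me3 ratio above 0. Ratios above 0 were found at 5.03% of all genes marked in both. Of 15 floor plate and endoderm genes, H3K27me3 reached 10 in wild type and 8 in K27M, beside 31.4% and 10.1% of all genes. The median log2 ratio was -0.75 over 8, beside -1.11 over all genes marked in both. Gata6, an endodermal factor, was highest at 0.27, followed by the ligand Shh at -0.48, and Gata4 (-1.08), Sox17 (-1.07) and Pdx1 (-1.02) were lowest. Of 17 motile cilia genes, H3K27me3 reached 14 in wild type and 4 in K27M. Those 4 were 28.6% of the cilia genes marked in wild type, close to the 30.7% kept over all genes. The ratios of the 4 were -0.06 at the dynein gene Dnah11, -0.49 at Rfx2, -0.70 at Mcidas and -0.87 at Dnaic1. H3K4me3 reached 11 of the 17 in wild type and 12 in K27M, beside 55.7% and 56.2% of all genes. H3K27ac reached 11 and 7, beside 51.5% and 43.7%.

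Predicted genes and genes reached by the same intervals, such as Foxl2os for Foxl2, were left out of the next comparison. The most similar other genes were found by Euclidean distance over log2 densities (1 added, 0 where no interval) of the 6 libraries. For Foxa1 they were Tmem151a (1.19), Olfm3 (1.46) and Mmp11 (1.52), all with H3K27me3 in K27M alone. For Foxl2 they were Shc2 (0.42), Odf3l2 (0.45) and Fam131c (0.46), which likewise had H3K4me3 in K27M alone, and of which Shc2 and Odf3l2 had the same K27M H3K27me3 density. Those of Foxp2 were Dnm3 (0.34), Col27a1 (0.58) and Asxl3 (0.61), and those of Foxf1 were Fbxl17 (0.20), Mon2 (0.34) and Fam221b (0.36). For Foxc1 they were Slc66a2, Chd8 and Bicral, at 0.07 each, and for Foxj1 Usp2 (0.05), H2ac6 (0.16) and Jpx (0.16). Foxa2, Foxb1 and Foxd3 had values in fewer than 3 libraries and were left out.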

How the data were processed

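The authors deposited 1 interval list per immunoprecipitated library, called separately and not pooled, in which each interval has its mean tag density and its highest one. Per the file headers these are signal values (tag coverage per bin of about 32 nt), and per the submitters' processing notes BWA, SICER and mm10 were used. Their roles, thresholds and versions, any scaling between libraries and the depth were not stated there. Interval counts of promoters and CpG islands are the authors' own. The 2 input libraries were not used here.

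Groups came from the sample titles. Gene spans came from RefSeq (GRCm38.p6, the assembly of mm10), for 24350 protein-coding and lncRNA genes with curated transcripts. A gene was marked when an interval overlapped its span plus 1 kb by at least 1 bp. An interval's mean density covers the whole interval, also outside the window. Ratios are log2((K27M + 1)/(wild type + 1)), with 2-fold as threshold, and lengths count both end positions. All values were computed with Python 3.11.15 and pandas 2.3.3, and the window step was tested on simulated intervals. With 1 library per group no test was possible. The 9 genes, the gene lists and the naming rule (the 9 genes, the 3 highest and lowest H3K27me3 ratios of each list, sharing neighbours and nearest genes) were chosen with earlier results of these data known. Other genes named beside them were chosen after their values were seen. A gene that the naming rule selects is not reported here.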

Additional observations from a re-analysis of the deposited data

How the results depend on the processing

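Values were recomputed with 13 alternatives, and apart from those given here the counts of the 9 genes moved by no more than 1.5 times. For the median ratios the limit was 1.5-fold on the scale before the logarithm, which is wide beside these medians. Within it the H3K27me3 median of -0.59 became -0.07 with a 5-kb flank, -0.06 with merged regions and -0.03 with 1 density floor. The H3K27ac median of 0.17 became -0.17 by highest density. The H3K4me3 median of 0.45 became 0.29 with equal 5th percentiles, 0.05 with equal sums and 0.095 when centred on all genes. Foxa1 had H3K27me3 in 2 libraries instead of 1 with a 5-kb flank and with merged regions. Limited to 1 kb around the annotated start, which only 5 of the 9 genes have here, H3K27me3 reached 2 genes in wild type, 3 in K27M and 2 in both, H3K27ac 1, 1 and 1, and H3K4me3 2, 3 and 2. With the density floor of both lists made equal, H3K27ac reached 3 genes in wild type instead of 5. The scale of the libraries moved the medians. For H3K27me3 the median log2 ratio of -0.59 became 0.10 with equal 5th percentiles, 2.01 with equal sums over all intervals and 0.52 when centred on all genes, and for H3K27ac 0.17 became 1.26 with equal sums. With equal sums Foxf1 and Foxl2 turned from -1.12 and -1.85 to 1.44 and 0.66. By highest density Foxp2 (1.15) lay above Foxa2 (0.57). With no flank the H3K4me3 ratio of Foxj1 was 1.14 instead of 0.49, and by densest interval it was 0.15. No paired analysis was possible because each group holds 1 library. The unknown depth limits what the missing calls at Foxb1 and Foxd3 can show.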
